A study of Homo sapiens with 20 samples.

Results

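DNA replication and G1/S genes are described here in NTERT cells, a human keratinocyte line immortalized with hTERT. The members are 48 named genes, chosen by function as licensing factors, replication fork proteins, nucleotide synthesis enzymes and cell cycle factors of S phase entry. The choice was made with earlier results of these data known. All 48 were found among the 57500 genes listed in each library. WT cells and GCN2KO cells, a pool of cells edited with CRISPR/Cas9 at EIF2AK4 (the gene of the eIF2 kinase GCN2), were left unwounded or subjected to high-density wounding (HDW), a grid of scratches drawn through a confluent cell sheet. Each of the 4 groups (both genotypes, unwounded or HDW) had 5 replicates, and RNA was taken 6 h after wounding. Before HDW the confluent cells spent 36 h in calcium and serum, which start the differentiation of keratinocytes. The labels name no other allele or agent, all groups were of the NTERT line, and the edited cells were used as a pool, so that GCN2KO is a mixture of edited cells. The comparisons address whether licensing and replication genes rise after wounding, and in which genotype.

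Replication begins in G1, when the origin recognition complex, CDC6 and CDT1 load the MCM2 to MCM7 helicase onto DNA, a step called licensing. At S phase entry CDC45 and the GINS complex activate the loaded helicase, and primase, the polymerases and the PCNA clamp follow at the fork. Many genes of these proteins are transcribed by E2F factors once cyclin and CDK activity has released them from RB family proteins, and keratinocytes of the basal layer, which divide, hold more of these mRNAs than cells that have begun to differentiate.

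Promoter sequences are shown first because the choice of members used no sequence and the E2F site is the promoter element best known from G1/S genes. RefSeq (GRCh38.p14) promoter windows of 300 bases, from 250 bases before to 50 after the start, were matched for 42 of the 48 members. An 8-base E2F word (TTTCCCGC, TTTCGCGC, TTTGCCGC or TTTGGCGC, on either strand) was found in 22 of these 42 windows, or 52.4%. Of all 27305 windows, 908 (3.33%) held such a word. A word of the CHR element of mitotic promoters (TTTGAA or TTCGAA, on either strand) stood in 2 of the 42 member windows (4.76%) and in 16.6% of all windows. Among 20 mitotic genes, 16 were matched, and 2 of their windows held an E2F word and 11 a CHR word. Of 46 further replication and G1/S genes, 36 were matched, and 12 of their windows (33.3%) held an E2F word. So did 3 of 17 matched windows (17.6%) of replication-dependent histone genes. The 60-base stretches below are from 6 members that rose after HDW in WT cells. E2F words are in capitals, and each line reads 5′ to 3′ on the strand of the gene.
E2F1: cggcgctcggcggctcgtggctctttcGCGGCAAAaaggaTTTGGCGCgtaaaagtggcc
GINS2: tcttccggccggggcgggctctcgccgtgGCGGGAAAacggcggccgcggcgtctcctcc
MCM6: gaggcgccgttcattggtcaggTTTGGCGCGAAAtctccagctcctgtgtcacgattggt
UHRF1: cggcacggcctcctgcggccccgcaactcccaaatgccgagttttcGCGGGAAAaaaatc
MCM3: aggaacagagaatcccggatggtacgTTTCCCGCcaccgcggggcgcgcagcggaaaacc
CDT1: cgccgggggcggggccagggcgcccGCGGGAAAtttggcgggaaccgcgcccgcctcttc

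The stretches lie at chr20:33686386-33686445 (- strand) for E2F1, chr16:85688955-85689014 (- strand) for GINS2 and chr2:135876496-135876555 (- strand) for MCM6. Those of the other genes lie at chr19:4909441-4909500 (+ strand) for UHRF1, chr6:52284883-52284942 (- strand) for MCM3 and chr16:88803729-88803788 (+ strand) for CDT1. The E2F1 stretch ends 1 base before the start and holds a pair of words on opposite strands. TTTGCCGC is on the strand opposite the gene at bases -33 to -26, and TTTGGCGC is on the strand of the gene at -20 to -13. The words of MCM6 overlap, TTTGGCGC at -90 to -83 and TTTCGCGC of the other strand at -86 to -79. In GINS2, UHRF1 and CDT1 the word is TTTCCCGC on the strand opposite the gene, within 35 bases of the start. An E2F word stood in 11 of 18 matched members that were called higher after HDW in WT cells past the fold threshold (log2 change of 1 or more), and in 11 of the 24 other matched members. It stood in 16 of 29 matched members whose response to HDW was called lower in GCN2KO than in WT cells and in 6 of 13 without that call. A match of letters is a description and not a bound site.

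Across the series, libraries held 14083504 to 34611570 counts on genes, and the WT unwounded libraries were the shallowest at 14083504 to 30505904. The target gene EIF2AK4 averaged 4355 normalized read counts (SD 149, n = 5) without wounding in WT cells and 894 (SD 61.8, n = 5) in GCN2KO cells, and differed by -2.28 on the log2 scale (SE 0.065, adjusted p = 4.29e-13 by edgeR). Keratinocyte markers (12 genes, KRT5 and KRT14 among them) summed to 540100 to 709600 normalized read counts per library. Markers of fibroblasts summed to at most 1043, mostly COL1A1, and those of melanocytes, endothelial and immune cells to at most 137. Involucrin (IVL), a marker of differentiating keratinocytes, averaged 3126 normalized read counts unwounded and 4464 after HDW in WT cells, and 11070 unwounded and 17350 after HDW in GCN2KO cells. The other differentiation markers on the list, KRT10 and KRT1, did not rise with IVL after HDW. Between the genotypes KRT10 was higher in GCN2KO cells, as IVL was, and KRT1 was lower. KRT10 averaged 1261 unwounded and 1054 after HDW in WT cells, and 1468 and 1276 in GCN2KO cells. KRT1 averaged 22.4 and 20.2 in WT cells, and 11.2 and 11.2 in GCN2KO cells. Of the other keratinocyte markers, KRT14, TP63, ITGB4 and ITGA6 were lower in unwounded GCN2KO than in WT cells. They averaged 63320, 12020, 50240 and 41390 in WT and 35130, 8346, 25990 and 24860 in GCN2KO cells. KRT5 went the other way, with 233800 in WT and 329200 in GCN2KO cells, and DSG3, DSP, SFN and PERP differed less. The part of these markers in the results below was not tested. In bulk RNA, fewer cells in a cell cycle stage and less mRNA in each of them cannot be told apart.

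A normalized read count is the raw count divided by the relative TMM effective library size, and a gene was called at an edgeR adjusted p of at most 0.05 over all genes tested. The fold threshold asks in addition for a log2 fold change that reaches 1 in size. The p-values measure the spread between the replicates as labelled. The labels name no separately edited pools, so a difference between the genotypes cannot be told apart from one between the cell populations used. Within WT HDW, the libraries did not stand at one level for these genes. Replicate 2 was the lowest of the 5 for 43 of the 48 members, and replicates 2 and 3 were the lowest pair for 45 of 48. They were also the lowest pair for 17 of 20 mitotic genes, and their totals, 34209033 and 34611570 counts, were not the shallowest of the group. The order of the libraries was not counted over all genes. Without both libraries, 42 members were called higher after HDW in WT cells and 1 lower, and the median log2 fold change was 1.04, against 39, 4 and 0.88 with them. Over all 15659 genes tested without both, 3733 were higher and 3680 lower.

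Licensing and replication genes were higher 6 h after HDW in WT cells and, for most, not in GCN2KO cells. In WT cells, 39 of 48 members were called higher (81.2%), against 26.1% of all 15348 genes tested. Past the fold threshold as well, 21 of 48 members were higher, against 2.62% of all genes. In 30 of 48 members all 5 HDW libraries lay above all 5 unwounded ones, against 19.2% of all genes. The members called lower were GMNN, TYMS, LIG1 and E2F8, 4 of 48 against 25.2% of all genes. RFC5, PRIM2, RRM1, RRM2 and E2F2 were not called. The median log2 fold change of the 48 members was 0.88, with a range of -0.58 to 2.66, and that of all genes tested was -0.0024.

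In GCN2KO cells, 45 members passed the filter on low counts, and MCM10, DSCC1 and E2F2 did not. Only UHRF1 and POLE were called higher after HDW, 2 of 45 against 11.9% of all 15791 genes tested. GMNN, GINS2, PCNA and PRIM2 were called lower, 4 of 45 (8.89%) against 10.8% of all genes, a share near that of all genes. No member passed the fold threshold in either direction, where 0.475% of all genes were higher and 0.196% lower. All 5 HDW libraries lay above the unwounded ones in 1 member and below them in 3, against 7.52% and 7.65% of all genes. The median log2 fold change of the 45 members was -0.07, beside -0.001 for all genes. Without the filter, the values of MCM10, DSCC1 and E2F2 were 0.38, -0.68 and 0.19, with edgeR adjusted p = 0.819, 0.324 and 0.826. With 1 library left out at a time, 1 to 4 members were higher and 1 to 7 lower. The 4 were found without GCN2KO unwounded replicate 4 and the 7 without GCN2KO unwounded replicate 2. Over all genes tested, 2137 of 15965 were higher in the first of these fits and 2185 of 15975 lower in the second.

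The difference between the genotypes in the response to HDW was tested as an interaction over all 20 libraries. The response was lower in GCN2KO than in WT cells for 33 of 48 members, against 12.5% of 16536 genes, and lower past the fold threshold for 21, against 2.15%. It was higher for 0 of 48 members, against 11.2% of all genes. At -0.94 the members' median was below that of all genes, -0.009. Of the 39 members called higher in WT cells, 32 had a lower response in GCN2KO cells. For the other 7 (CDT1, MCM10, POLA1, POLE, TK1, CCNE1 and CCNE2) the difference between the genotypes was not called. The share of all genes with both calls was not counted. Over the 45 members tested in every comparison, the response was lower for 32. Without WT HDW replicates 2 and 3 the response was lower in GCN2KO cells for 37 members, with a median of -1.13. Over all 16738 genes tested without both, it was lower for 1736.

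**Figure D1:**
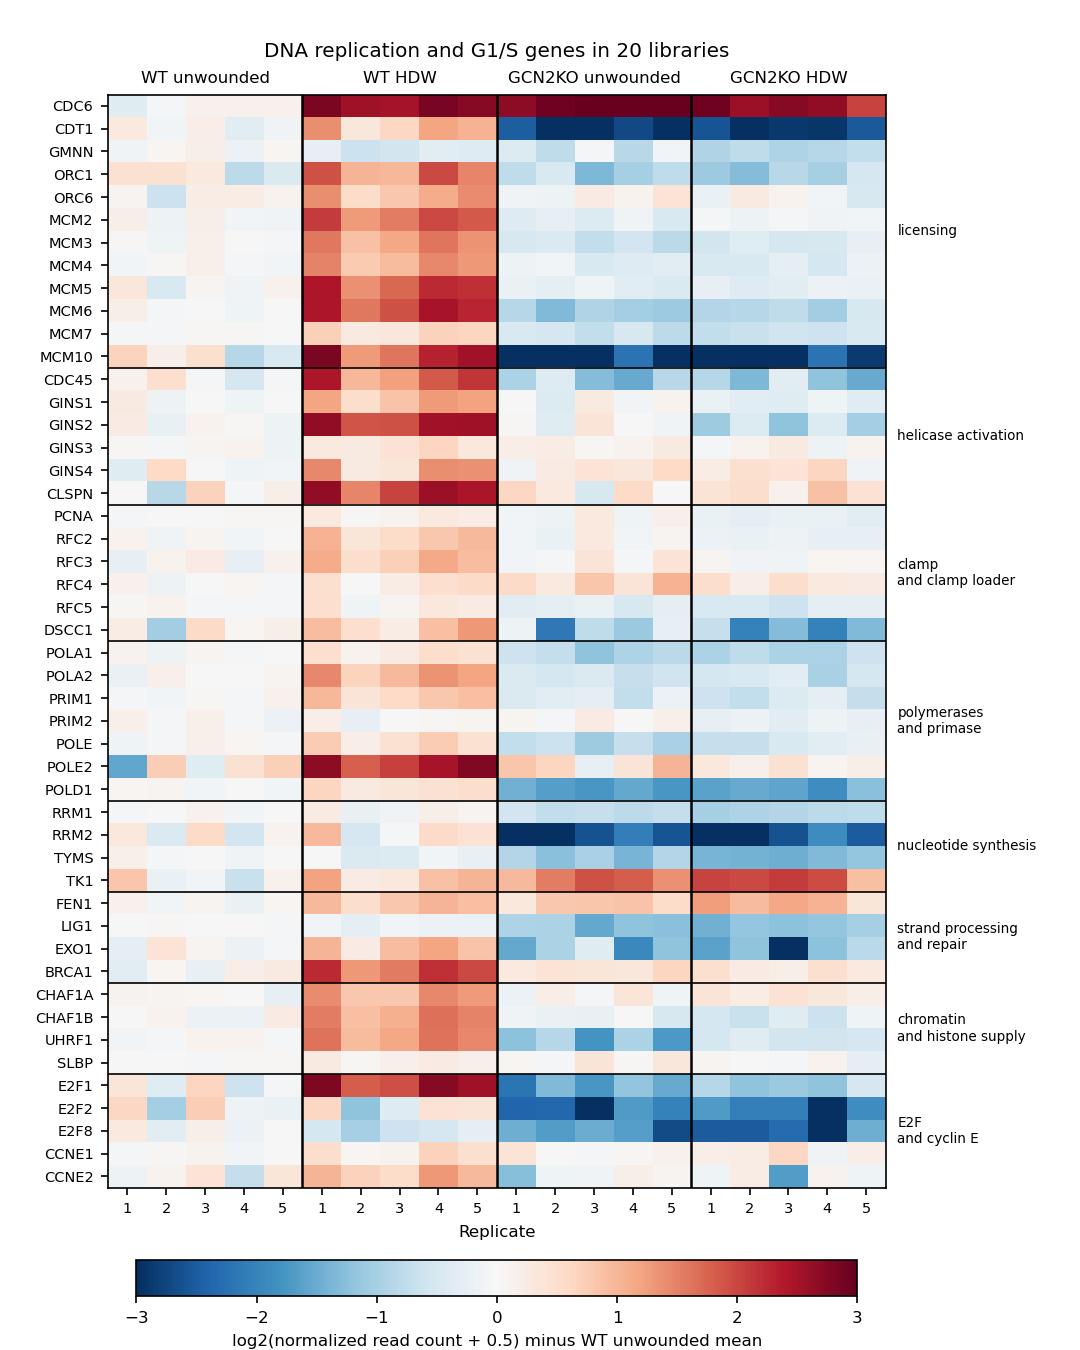
Expression of the 48 genes in each of the 20 libraries, as log2 of the normalized read count plus 0.5 minus the mean of the 5 WT unwounded libraries. Rows are genes by role, columns are replicates 1 to 5 of each group, and red and blue mark higher and lower values, cut at 3 and -3. WT HDW is red in most rows, palest in replicates 2 and 3, while both GCN2KO groups are near white or blue except for rows such as CDC6, TK1 and FEN1.

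**Figure D2:**
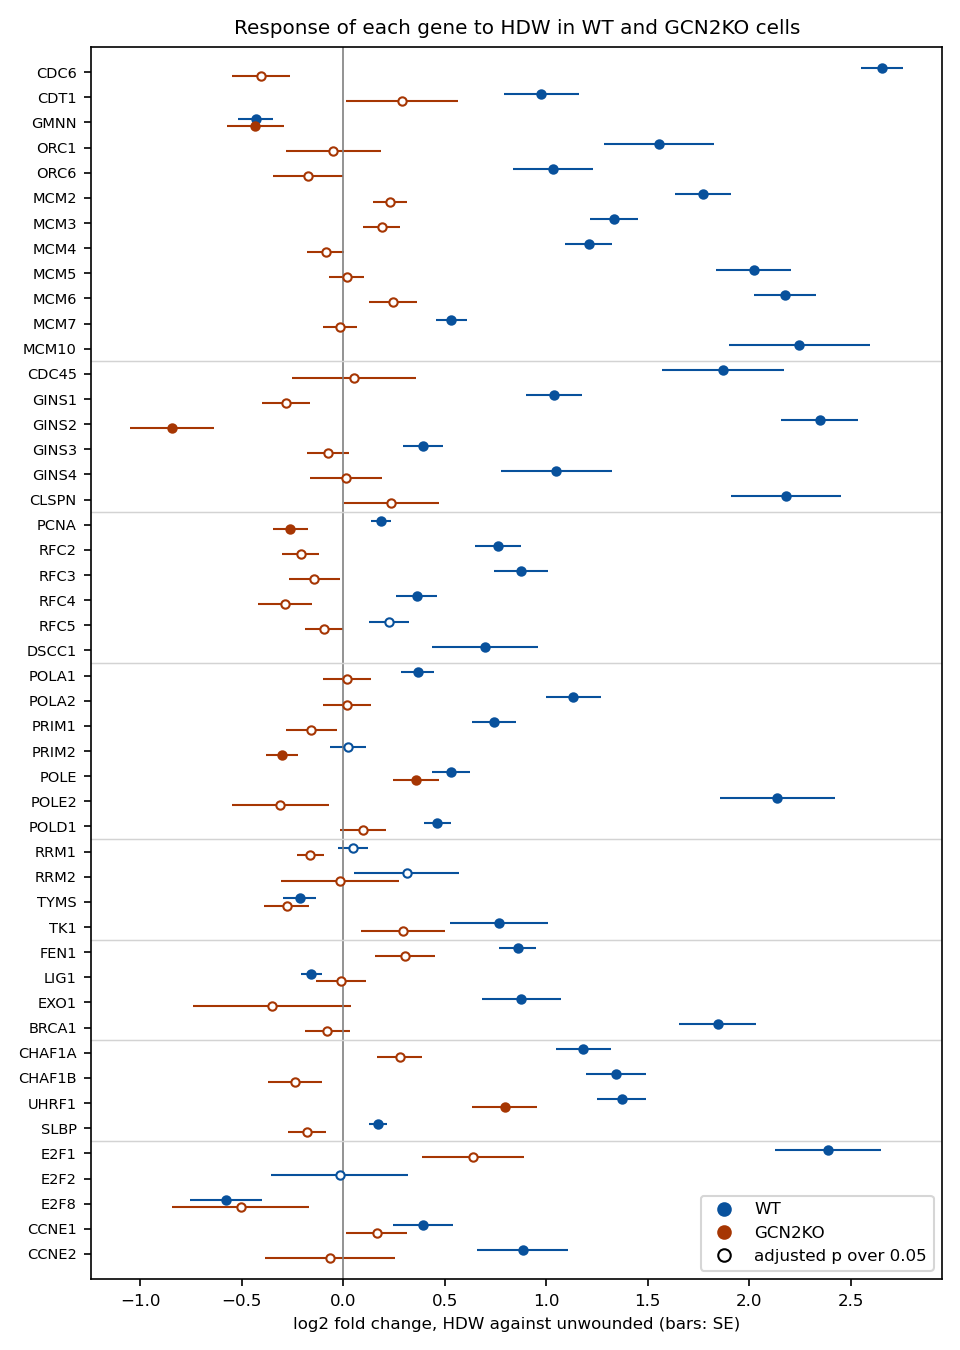
Log2 fold change of HDW against unwounded cells for each gene in WT and GCN2KO cells, with SE bars, and open symbols where the edgeR adjusted p is over 0.05. The WT values reach 2.66 for CDC6, and the GCN2KO values lie between -0.84 for GINS2 and 0.80 for UHRF1. MCM10, DSCC1 and E2F2 have no GCN2KO value because they were filtered for low counts.

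Among the 12 licensing genes, 11 were higher after HDW in WT cells, 9 of them past the fold threshold, and their median log2 fold change was 1.45. None was called higher in GCN2KO cells, where 11 were tested, and the median was -0.02. The response was lower in GCN2KO cells for 9 of 12 members of the group. CDC6, the ATPase that brings the MCM helicase to the origin recognition complex, lies at chr17:40287879-40304657 of GRCh38. CDC6 had 43.7, 55.3, 61.6, 61.3 and 61.7 normalized read counts in the WT libraries left unwounded and 404, 331, 321, 406 and 376 in those after HDW. CDC6 had 362, 431, 533, 457 and 515 in the unwounded and 429, 334, 378, 356 and 229.8 in the HDW libraries of GCN2KO cells. The WT groups did not overlap, and all 10 GCN2KO libraries lay above every WT unwounded library. The log2 fold change for HDW was 2.66 (SE 0.11, adjusted p = 6.34e-11 by edgeR) in WT and -0.41 (SE 0.14, adjusted p = 0.0544 by edgeR) in GCN2KO cells, and the responses differed by -3.08 (SE 0.20, adjusted p = 2.32e-10 by edgeR). Unwounded GCN2KO cells had 459.6 ± 68.8 (SD, n = 5) normalized read counts of CDC6 and wounded WT cells 368 ± 39.9 (SD, n = 5), and these groups overlapped.

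MCM10, which helps to activate the loaded helicase, was the licensing member with the next largest change in WT cells. MCM10 had 27.8, 19.6, 24.2, 9.29 and 12.5 normalized read counts in the WT libraries left unwounded and 126, 42.9, 54.0, 87.7 and 102 in those after HDW. In WT cells the groups did not overlap, and the log2 fold change was 2.25 (SE 0.35, adjusted p = 6.39e-05 by edgeR). All 10 GCN2KO libraries lay near 0, with 0 to 4 raw counts of MCM10 unwounded and 1 to 2 after HDW. At these counts its fitted response in GCN2KO cells is uncertain, and the interaction was -1.90 (SE 1.26, adjusted p = 0.293 by edgeR).

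The 6 subunits of the MCM2 to MCM7 helicase, summed over their genes, gave 4726, 4434, 4962, 4594 and 4601 normalized read counts without wounding in WT and 13353, 8137, 9429.6, 12983 and 11805 after HDW in the WT libraries. Their sum was 3578, 3546, 3067, 3371 and 2998 before and 3186, 3257, 3415, 3247 and 3768 after HDW in the GCN2KO libraries. No WT HDW library overlapped any other library in this sum, and the GCN2KO groups overlapped each other. Each of the 6 genes was called higher after HDW in WT cells, from 0.53 (SE 0.075, adjusted p = 2.8e-05 by edgeR) on the log2 scale for MCM7 to 2.18 (SE 0.15, adjusted p = 1.99e-08 by edgeR) for MCM6. MCM5 (2.02), MCM2 (1.77), MCM3 (1.34) and MCM4 (1.21) lay between. None of the 6 was called in GCN2KO cells, where the values ran from -0.09 for MCM4 to 0.25 for MCM6, and the response was called lower in GCN2KO cells for all 6. An antisense gene on the other strand shares 23.6% of the exonic bases of MCM2, and strand use in the counting was not given in the sources used here.

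**Figure D3:**
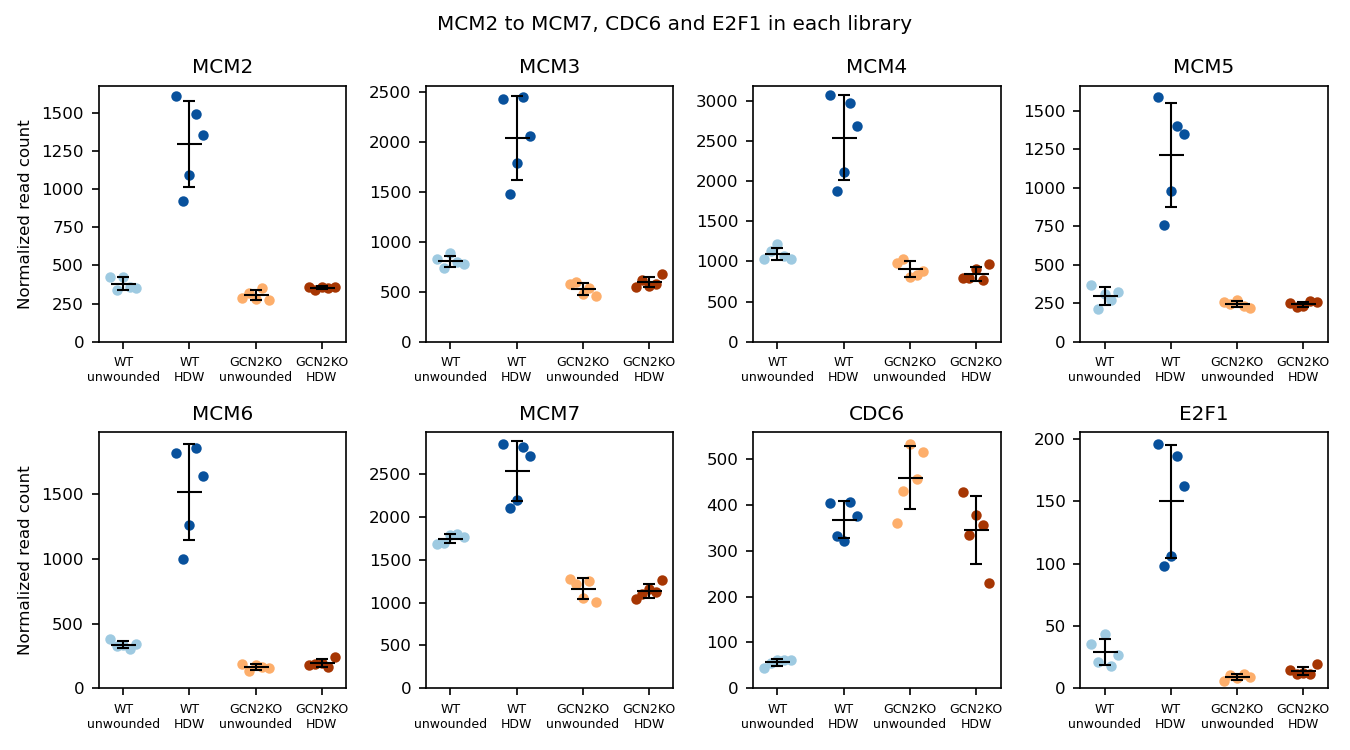
Normalized read counts of MCM2 to MCM7, CDC6 and E2F1 in each library, with the mean and SD of the 5 replicates of each group as bars, on axes that start at 0. The WT HDW points of every gene lie above the WT unwounded points, replicates 2 and 3 form the lower pair, and CDC6 alone has GCN2KO points at the height of WT HDW.

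The subunits ORC1 and ORC6 of the origin recognition complex were higher in WT cells by 1.56 (SE 0.27, adjusted p = 0.000182 by edgeR) and 1.03 (SE 0.20, adjusted p = 0.00041 by edgeR). CDT1, the loading factor that works with CDC6, rose by 0.98 (SE 0.18, adjusted p = 0.00036 by edgeR) in WT cells. Without wounding, raw counts of CDT1 were 95 to 173 in WT and 10 to 32 in GCN2KO libraries, and the response in GCN2KO cells, 0.29 (SE 0.27, adjusted p = 0.462 by edgeR), was not called different from that in WT cells (-0.69, SE 0.37, adjusted p = 0.187 by edgeR). Geminin (GMNN), the inhibitor of CDT1, was lower after HDW in both genotypes, with -0.43 (SE 0.084, adjusted p = 0.000487 by edgeR) in WT and -0.43 (SE 0.14, adjusted p = 0.038 by edgeR) in GCN2KO cells. Geminin was the 1 licensing member that fell in WT cells, with all 5 HDW libraries below all 5 unwounded ones.

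All 6 genes of helicase activation were higher after HDW in WT cells, with a median of 1.46, and the response of all 6 was lower in GCN2KO cells. GINS2, a subunit of the GINS complex, had the largest change. GINS2 had 39.8, 28.6, 36.2, 34.4 and 29.9 normalized read counts in the WT libraries left unwounded and 215, 126, 127, 193 and 196 in those after HDW. GINS2 had 34.1, 26.1, 43.9, 33.6 and 31.2 in the unwounded and 15.9, 25.1, 14.3, 25.1 and 16.3 in the HDW libraries of GCN2KO cells. The WT HDW libraries lay above all others, and the GCN2KO HDW libraries lay below all GCN2KO unwounded ones. The log2 fold change of GINS2 was 2.35 (SE 0.19, adjusted p = 8.81e-08 by edgeR) in WT and -0.84 (SE 0.21, adjusted p = 0.0124 by edgeR) in GCN2KO cells, and the interaction of -3.21 (SE 0.29, adjusted p = 4.43e-08 by edgeR) was the largest in size of the 48. With all libraries thinned to the smallest total, the GCN2KO value was -0.70 (adjusted p = 0.125 by edgeR) and no longer called.

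CLSPN encodes claspin, which couples the fork to checkpoint signalling. CLSPN had 15.9, 8.92, 26.6, 15.8 and 18.3 normalized read counts in the WT libraries left unwounded and 105, 45.4, 67.5, 97.7 and 90.0 in those after HDW. CLSPN had 25.0, 19.9, 11.4, 24.4 and 16.04 in the unwounded and 21.7, 23.4, 17.6, 30.1 and 22.0 in the HDW libraries of GCN2KO cells. Only the WT HDW libraries stood apart, and the log2 fold change was 2.18 (SE 0.27, adjusted p = 7.14e-06 by edgeR) in WT and 0.24 (SE 0.23, adjusted p = 0.479 by edgeR) in GCN2KO cells. CDC45, the partner of GINS in the active helicase, followed with 1.87 (SE 0.30, adjusted p = 9.71e-05 by edgeR) in WT and 0.05 (SE 0.31, adjusted p = 0.918 by edgeR) in GCN2KO cells. GINS1, GINS3 and GINS4 had 1.04, 0.39 and 1.05 in WT cells. GINS3 changed least of the group, and GINS4, whose exons overlap other genes over 23.4% of their bases, had overlapping WT groups.

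Among the clamp and clamp loader genes, 5 of 6 were higher after HDW in WT cells, none past the fold threshold, with a median of 0.53, and the response was lower in GCN2KO cells for 5 of 6. RFC3 had 99.4, 127, 139, 98.5 and 129 normalized read counts in the WT libraries left unwounded and 254, 168, 192, 257 and 223 in those after HDW. RFC3 had 111, 112, 154, 113 and 157 in the unwounded and 123, 109, 109.9, 122 and 123 in the HDW libraries of GCN2KO cells. RFC3 and RFC2 are subunits of the loader that places PCNA on DNA. The WT groups of RFC3 did not overlap, and the log2 fold change was 0.88 (SE 0.13, adjusted p = 5.71e-05 by edgeR) in WT and -0.14 (SE 0.12, adjusted p = 0.416 by edgeR) in GCN2KO cells. RFC2 had 312, 269, 312, 276 and 295 normalized read counts in the WT libraries left unwounded and 602, 375, 427, 509 and 572 in those after HDW. RFC2 had 277, 253, 357, 274 and 311 in the unwounded and 258, 253, 262, 247 and 247 in the HDW libraries of GCN2KO cells. For RFC2 the WT groups did not overlap either, and the log2 fold change was 0.76 (SE 0.12, adjusted p = 5.13e-05 by edgeR) in WT and -0.21 (SE 0.092, adjusted p = 0.109 by edgeR) in GCN2KO cells.

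DSCC1, a subunit of an alternative clamp loader, had the largest interaction of the group. DSCC1 had 17.9, 7.14, 22.9, 15.8 and 17.4 normalized read counts in the WT libraries left unwounded and 29.5, 21.9, 17.7, 28.9 and 38.1 in those after HDW. DSCC1 had 13.6, 3.07, 8.77, 6.72 and 12.7 in the unwounded and 9.17, 3.35, 5.87, 3.34 and 5.75 in the HDW libraries of GCN2KO cells. The WT groups overlapped, and counts were low throughout. Its interaction, -1.39 (SE 0.48, adjusted p = 0.0357 by edgeR), lost the call in 9 of 20 fits that left out 1 library, with edgeR adjusted p from 0.0516 to 0.0891, and those libraries are named in the closing section. PCNA, the clamp itself, was the most abundant member per length, at 74.2 reads per kb of exon per 1e6 library reads in WT unwounded and 84.7 in WT HDW cells. PCNA was higher after HDW in WT cells, with 0.19 (SE 0.048, adjusted p = 0.00426 by edgeR), and lower in GCN2KO cells, with -0.26 (SE 0.084, adjusted p = 0.0389 by edgeR). RFC4 was higher in WT cells (0.36), and RFC5 was not called (0.22, SE 0.098, adjusted p = 0.0692 by edgeR).

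Of 7 polymerase and primase genes, 6 were higher after HDW in WT cells and 5 had a lower response in GCN2KO cells, with a median in WT cells of 0.53. POLE2 is the second subunit of polymerase epsilon. POLE2 had 3.98, 21.4, 9.66, 17.7 and 21.2 normalized read counts in the WT libraries left unwounded and 84.3, 45.4, 54.0, 72.8 and 90.0 in those after HDW. POLE2 had 22.7, 19.9, 10.5, 16.8 and 26.2 in the unwounded and 15.9, 14.2, 17.6, 13.4 and 14.4 in the HDW libraries of GCN2KO cells. The WT HDW libraries lay above all others, and WT unwounded replicate 1 had 2 raw counts. For POLE2 the log2 fold change was 2.14 (SE 0.28, adjusted p = 1.46e-05 by edgeR) in WT and -0.31 (SE 0.24, adjusted p = 0.36 by edgeR) in GCN2KO cells, with an interaction of -2.46 (SE 0.41, adjusted p = 9.97e-05 by edgeR). POLA2 is the accessory subunit of polymerase alpha. POLA2 had 119, 152, 137, 138 and 145 normalized read counts in the WT libraries left unwounded and 374, 217, 271, 351 and 312 in those after HDW. POLA2 had 102, 95.0, 100.9, 84.9 and 91.2 in the unwounded and 95.9, 99.6, 108, 70.2 and 95.8 in the HDW libraries of GCN2KO cells. The WT groups of POLA2 did not overlap, while the GCN2KO groups did.

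For POLA2 the log2 value was 1.13 (SE 0.13, adjusted p = 4.36e-06 by edgeR) in WT and 0.02 (SE 0.12, adjusted p = 0.926 by edgeR) in GCN2KO cells, and 21.3% of its exonic bases are shared with other genes. The catalytic subunits POLA1, POLE and POLD1 had log2 fold changes of 0.37, 0.53 and 0.46 in WT cells. POLE was higher in GCN2KO cells too (0.36, SE 0.11, adjusted p = 0.0375 by edgeR). The primase subunits parted. PRIM1 was higher in WT cells (0.74, SE 0.11, adjusted p = 3.97e-05 by edgeR), and PRIM2 was not called (0.02, SE 0.088, adjusted p = 0.846 by edgeR) and was lower in GCN2KO cells (-0.30, SE 0.078, adjusted p = 0.0159 by edgeR). PRIM2 was the 1 member with a lower response in GCN2KO cells that was not called higher in WT cells.

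Of the 4 nucleotide synthesis genes, 1 was higher after HDW in WT cells and 1 was lower, 25.0% each and near the 26.1% and 25.2% of all genes. TK1 was higher, TYMS was lower, and RRM1 and RRM2, the subunits of ribonucleotide reductase, were not called, and no interaction was called. TK1 encodes thymidine kinase of the salvage pathway. TK1 had 109, 53.5, 58.0, 38.1 and 66.5 normalized read counts in the WT libraries left unwounded and 142, 73.2, 76.8, 113 and 125 in those after HDW. TK1 had 121, 179, 233, 217 and 160.4 in the unwounded and 251, 245, 263, 241 and 114 in the HDW libraries of GCN2KO cells. The groups overlapped within each genotype, and GCN2KO HDW replicate 5 stood below the other 4 of its group. Its log2 fold change was 0.77 (SE 0.24, adjusted p = 0.0153 by edgeR) in WT and 0.29 (SE 0.21, adjusted p = 0.318 by edgeR) in GCN2KO cells, with an interaction of -0.49 (SE 0.35, adjusted p = 0.335 by edgeR). Without WT unwounded replicate 4 the WT value was 0.59 (adjusted p = 0.0529 by edgeR), and without GCN2KO HDW replicate 5 the GCN2KO value was 0.46 (adjusted p = 0.0405 by edgeR).

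RRM2, the regulated subunit of the reductase, had the next largest change. RRM2 had 117, 69.6, 141, 63.2 and 102 normalized read counts in the WT libraries left unwounded and 185, 66.5, 92.0, 139.6 and 128 in those after HDW. RRM2 had 11.4, 7.66, 14.9, 21.9 and 15.2 in the unwounded and 10.01, 10.9, 15.1, 25.1 and 16.3 in the HDW libraries of GCN2KO cells. The groups overlapped within each genotype, but all GCN2KO libraries lay below all WT libraries. The log2 fold change for HDW in WT cells was 0.31 (SE 0.26, adjusted p = 0.333 by edgeR), and without WT HDW replicates 2 and 3 it was 0.63 (adjusted p = 0.0154 by edgeR). TYMS, thymidylate synthase, was lower in WT cells, with -0.22 (SE 0.082, adjusted p = 0.0388 by edgeR). In GENCODE, 47.9% of the exonic bases of TYMS are shared with other genes, most of them with ENOSF1 on the other strand.

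Among the 4 genes of strand processing and repair, FEN1, EXO1 and BRCA1 were higher after HDW in WT cells and LIG1 was lower, and the same 3 had a lower response in GCN2KO cells. BRCA1 acts in recombination repair and fork protection. BRCA1 had 61.6, 80.3, 65.2, 88.3 and 92.5 normalized read counts in the WT libraries left unwounded and 365, 188, 226, 351 and 304 in those after HDW. BRCA1 had 94.4, 103, 98.2, 97.5 and 121 in the unwounded and 108, 90.4, 87.2, 107 and 93.9 in the HDW libraries of GCN2KO cells. The WT groups did not overlap and the GCN2KO groups did. For BRCA1 the log2 value was 1.85 (SE 0.19, adjusted p = 1.05e-06 by edgeR) in WT and -0.08 (SE 0.11, adjusted p = 0.636 by edgeR) in GCN2KO cells, with an interaction of -1.95 (SE 0.23, adjusted p = 1.72e-06 by edgeR).

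EXO1 encodes an exonuclease of mismatch repair. EXO1 had 19.9, 32.1, 25.4, 21.4 and 23.1 normalized read counts in the WT libraries left unwounded and 48.9, 28.6, 46.4, 54.8 and 44.1 in those after HDW. EXO1 had 7.96, 12.3, 18.4, 5.88 and 10.1 in the unwounded and 7.51, 10.04, 2.52, 10.03 and 13.4 in the HDW libraries of GCN2KO cells. The WT groups overlapped, and the log2 fold change was 0.88 (SE 0.20, adjusted p = 0.00159 by edgeR) in WT and -0.35 (SE 0.39, adjusted p = 0.54 by edgeR) in GCN2KO cells. The flap endonuclease FEN1, which trims Okazaki fragments, rose by 0.86 (SE 0.093, adjusted p = 1.74e-06 by edgeR) in WT cells, with 0.31 (SE 0.15, adjusted p = 0.143 by edgeR) in GCN2KO cells. LIG1, the ligase that seals those fragments, fell by 0.16 on the log2 scale in WT cells (SE 0.053, edgeR adjusted p = 0.0207).

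All 4 genes of chromatin and histone supply were higher after HDW in WT cells, with a median of 1.26, and had a lower response in GCN2KO cells. UHRF1, which carries DNA methylation through replication, was the member with the largest rise in GCN2KO cells. UHRF1 had 300.1, 305, 341, 344 and 306 normalized read counts in the WT libraries left unwounded and 982, 614, 712, 991 and 867 in those after HDW. UHRF1 had 136, 175, 92.1, 165 and 95.4 in the unwounded and 222, 246, 216, 219 and 226 in the HDW libraries of GCN2KO cells. The HDW libraries lay above the unwounded libraries in both genotypes, and all GCN2KO libraries lay below all WT libraries. The log2 fold change was 1.37 (SE 0.12, adjusted p = 2.05e-07 by edgeR) in WT and 0.80 (SE 0.16, adjusted p = 0.0047 by edgeR) in GCN2KO cells, with an interaction of -0.58 (SE 0.21, adjusted p = 0.0419 by edgeR).

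CHAF1A and CHAF1B encode subunits of the CAF-1 histone chaperone. CHAF1B had 121, 129, 105, 106 and 141 normalized read counts in the WT libraries left unwounded and 345, 223, 248.9, 376 and 338 in those after HDW. CHAF1B had 111, 104, 102, 118 and 86.1 in the unwounded and 83.4, 74.5, 92.3, 76.9 and 109 in the HDW libraries of GCN2KO cells. Only the WT groups were separate. For CHAF1B the log2 fold change was 1.35 (SE 0.15, adjusted p = 2.18e-06 by edgeR) in WT and -0.24 (SE 0.13, adjusted p = 0.197 by edgeR) in GCN2KO cells, with an interaction of -1.60 (SE 0.21, adjusted p = 5.94e-06 by edgeR). CHAF1A was higher in WT cells by 1.18 (SE 0.13, adjusted p = 2.79e-06 by edgeR), and SLBP, which binds the ends of histone mRNAs, by 0.17 (SE 0.045, adjusted p = 0.00514 by edgeR).

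The E2F and cyclin E genes were mixed. E2F1, CCNE1 and CCNE2 were higher after HDW in WT cells, E2F8 was lower and E2F2 was not called, and E2F1 alone of the 5 had a called interaction. E2F1 is an activating E2F factor. E2F1 had 35.8, 21.4, 43.5, 17.7 and 27.0 normalized read counts in the WT libraries left unwounded and 196, 98.4, 106, 186 and 163 in those after HDW. E2F1 had 5.68, 10.7, 7.89, 11.8 and 9.29 in the unwounded and 15.01, 11.7, 12.6, 11.7 and 19.2 in the HDW libraries of GCN2KO cells. All WT HDW libraries lay above all others, and all GCN2KO unwounded libraries lay below all WT libraries. The log2 fold change of E2F1 was 2.39 (SE 0.26, adjusted p = 1.88e-06 by edgeR) in WT and 0.64 (SE 0.25, adjusted p = 0.0797 by edgeR) in GCN2KO cells, with an interaction of -1.76 (SE 0.45, adjusted p = 0.00641 by edgeR).

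CCNE2 encodes a cyclin that activates CDK2 at S phase entry. CCNE2 had 17.9, 21.4, 26.6, 12.1 and 26.02 normalized read counts in the WT libraries left unwounded and 41.3, 32.8, 29.5, 49.9 and 39.8 in those after HDW. CCNE2 had 7.96, 18.4, 18.4, 22.7 and 21.1 in the unwounded and 18.4, 23.4, 5.87, 21.7 and 18.2 in the HDW libraries of GCN2KO cells. The WT groups did not overlap, and the log2 fold change was 0.88 (SE 0.22, adjusted p = 0.00375 by edgeR) in WT and -0.07 (SE 0.32, adjusted p = 0.902 by edgeR) in GCN2KO cells. The other cyclin E gene, CCNE1, had 0.39 (SE 0.15, adjusted p = 0.0353 by edgeR) in WT cells. INTS8, on the other strand, shares 37.1% of the exonic bases of CCNE2. E2F8, an E2F factor that represses, was lower in WT cells, with -0.58 (SE 0.18, adjusted p = 0.0124 by edgeR), and had -0.51 (SE 0.34, adjusted p = 0.288 by edgeR) in GCN2KO cells. E2F2, another activating E2F, had -0.02 (SE 0.34, adjusted p = 0.971 by edgeR) in WT cells.

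In unwounded cells the genotypes already differed. Of 47 members tested, 26 were lower in GCN2KO cells (55.3%), against 33.1% of 15348 genes, and 11 were lower past the fold threshold, against 8.22%. All 5 GCN2KO libraries lay below all 5 WT libraries in 20 members, against 27.0% of all genes. Higher in GCN2KO cells were 5 of 47 members (10.6%), against 33.4%, and 2 past the fold threshold, against 8.21%. The median log2 fold change was -0.31, beside 0.0042 for all genes. Over the 45 members tested in every comparison, 24 were lower, 10 of them past the fold threshold. MCM10 was filtered here, and without the filter it had -3.75 (adjusted p = 2.16e-12 by edgeR) from 0 to 4 raw counts per GCN2KO library. This comparison shares libraries with the others, so that its values are set beside them and not correlated with them.

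CDC6 and TK1 were the members higher in unwounded GCN2KO cells past the fold threshold, by 2.99 (SE 0.13, adjusted p = 2.23e-11 by edgeR) and 1.56 (SE 0.23, adjusted p = 1.49e-05 by edgeR). RFC4, FEN1 and BRCA1 were higher by 0.67, 0.69 and 0.39. CDT1 had the lowest log2 value, -3.08 (SE 0.22, adjusted p = 6.12e-09 by edgeR), so that the loading partners CDC6 and CDT1 differed between the genotypes in opposite directions. RRM2 (-2.71), E2F2 (-2.41), E2F8 (-1.79), E2F1 (-1.63) and POLD1 (-1.62, SE 0.083, adjusted p = 1.33e-10 by edgeR) followed. UHRF1 (-1.29), LIG1 (-1.17, SE 0.10, adjusted p = 6.28e-08 by edgeR), EXO1 (-1.13), TYMS (-1.06) and MCM6 (-1.02) complete the 11 past the fold threshold. E2F2 passed the filter here through the WT libraries, and its GCN2KO libraries held 3 to 9 raw counts. RRM1, at -0.69 (SE 0.063, adjusted p = 8.25e-08 by edgeR), was among the 5 members with the smallest adjusted p.

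After HDW the difference between the genotypes was wider. Of 48 members, 43 were lower in GCN2KO cells, against 35.8% of 15855 genes, and 32 were lower past the fold threshold, against 7.83%. In 40 of 48 all GCN2KO libraries lay below all WT libraries, against 29.3% of all genes. Over the 45 members tested in every comparison, 40 were lower, 29 of them past the fold threshold. TK1 was the 1 member called higher, against 35.9%, and it was past the fold threshold, against 7.1%. CDC6, RFC4, FEN1 and CCNE1 were not called. At -1.32 the members' median stood below that of all genes, 0.002. Lower in GCN2KO cells in both states were 26 members. Another 14 that rose in WT cells were not called between the genotypes unwounded and were lower in GCN2KO cells after HDW. The shares of all genes with these joint calls were not counted, so neither number is set against a background. BRCA1 was called higher unwounded and lower after HDW.

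POLD1, the catalytic subunit of polymerase delta, had the smallest adjusted p after HDW. After HDW it had 962, 733, 789.9, 848 and 881 normalized read counts in WT and 202, 214, 205, 167 and 259 in GCN2KO libraries, and the log2 fold change was -1.995 (SE 0.097, adjusted p = 9.71e-10 by edgeR). MCM6 (-2.96, SE 0.17, adjusted p = 3.53e-09 by edgeR), CDT1 (-3.77, SE 0.23, adjusted p = 5.76e-09 by edgeR), UHRF1 (-1.88, SE 0.12, adjusted p = 1.22e-08 by edgeR) and GINS2 (-3.18, SE 0.22, adjusted p = 1.72e-08 by edgeR) were next. None of these 5 overlapped between the genotypes. E2F1 had -3.39, RRM2 -3.06, CDC45 -2.82, ORC1 -2.48, EXO1 -2.38, MCM5 -2.31, DSCC1 -2.22, E2F2 -2.20 and POLE2 -2.17 as log2 fold changes. MCM2, CLSPN, CHAF1B, MCM3, E2F8, POLA2, MCM4, BRCA1, GINS1, PRIM1, POLA1, CCNE2, MCM7, ORC6, TYMS, LIG1 and POLE lay between -1.87 for MCM2 and -1.02 for POLE. The values of MCM10, DSCC1 and E2F2 are uncertain, since these genes passed the filter here through the WT libraries, where they are high, and so had to differ. Raw counts per GCN2KO HDW library were 2 to 11 for DSCC1 and 1 to 9 for E2F2. MCM10 had -5.65, a value that rests on 1 to 2 raw counts per GCN2KO library. TK1 had 1.08 (SE 0.22, adjusted p = 0.000583 by edgeR), with overlapping groups.

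Other lists of the cell cycle were counted in the same fits. They were written out by function, with earlier results of these data known, and none is a subset of the 48. Of 46 further replication and G1/S genes, 27 were higher (58.7%, against 26.1% of all genes) and 2 lower (4.35%, against 25.2%) after HDW in WT cells, and the median log2 fold change was 0.30. The response was lower in GCN2KO cells for 26 (56.5%, against 12.5%). Of the 46, DTL, which targets CDT1 for destruction, had 2.91 (SE 0.25, adjusted p = 1.57e-07 by edgeR) in WT cells, and CDC7, the kinase that fires licensed origins, had 1.07 (SE 0.089, adjusted p = 1.24e-07 by edgeR). In GCN2KO cells 3 of the 46 were higher after HDW (6.52%, against 11.9% of all genes) and 6 lower (13.0%, a share near the 10.8% of all genes).

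Of 20 mitotic genes, whose products act after replication, 2 were called higher after HDW in WT cells (2 of 20, against 26.1% of all genes) and 0 lower (against 25.2%). The 2 were BUB1B (0.69, SE 0.25, adjusted p = 0.0281 by edgeR) and TPX2 (0.38, SE 0.11, adjusted p = 0.0108 by edgeR), and the median over the 20 was 0.20. No interaction was called in the 20, against 11.2% higher and 12.5% lower of all genes, and the median was -0.10. Between the genotypes, 17 of 19 tested mitotic genes were lower in GCN2KO cells unwounded (89.5%, against 33.1% of all genes), with a median of -1.49. After HDW 19 of 20 were lower (95.0%, against 35.8%), with a median of -1.57. For the 48 members, the same medians were -0.31 and -1.32. The difference between the lists was not tested. Within GCN2KO cells, 17 of the 20 mitotic genes passed the filter on low counts. The rest include AURKB and BIRC5, with 0 to 4 and 1 to 8 raw counts per GCN2KO HDW library. Where tested between the genotypes, these genes passed the filter through the WT libraries, where they are high, and so had to differ.

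Of 17 regulators of G1, 8 were higher (47.1%, against 26.1% of all genes) and 6 lower (35.3%, against 25.2%) after HDW in WT cells. In GCN2KO cells 5 were higher (29.4%, against 11.9%) and 1 lower (5.88%, against 10.8%). Their interaction was called higher for 5 (29.4%, against 11.2%) and lower for 1 (5.88%, against 12.5%). CCND1, the cyclin D gene that partners CDK4 and CDK6, rose after HDW in both genotypes, by 1.02 (SE 0.05, adjusted p = 5.46e-10 by edgeR) in WT and 1.27 (SE 0.11, adjusted p = 2.12e-05 by edgeR) in GCN2KO cells, and its interaction of 0.24 (SE 0.12, adjusted p = 0.173 by edgeR) was not called. CCND3, another cyclin D gene, fell in both, with -0.86 (SE 0.037, adjusted p = 1.49e-10 by edgeR) in WT and -0.25 (SE 0.072, adjusted p = 0.0241 by edgeR) in GCN2KO cells, and its interaction was 0.59 (SE 0.081, adjusted p = 1.19e-05 by edgeR). The CDK inhibitor gene CDKN1C had -0.84 (SE 0.17, adjusted p = 0.000559 by edgeR) in WT and -0.34 (SE 0.18, adjusted p = 0.188 by edgeR) in GCN2KO cells. In WT cells the means of CDKN1B, CDKN2B and CDKN2D fell after HDW too, and those of CDKN2A and CDKN2C rose. CDKN1A averaged 22560 unwounded and 22690 after HDW in WT cells, and 63880 and 65170 in GCN2KO cells. Of the 17 G1 regulators, 6 were higher (35.3%, against 33.4%) and 8 lower (47.1%, against 33.1%) in GCN2KO than in WT cells unwounded. After HDW, 6 were higher (35.3%, against 35.9%) and 7 lower (41.2%, against 35.8%). Replication-dependent histone genes gave 0 higher (against 26.1% of all genes) and 7 lower (70.0%, against 25.2%) of 10 tested after HDW in WT cells, with a median of -0.60. In GCN2KO cells 0 of 12 were higher (against 11.9%) and 1 lower (8.33%, against 10.8%). All 12 tested were higher in GCN2KO than in WT cells in both states, against 33.4% of all genes unwounded and 35.9% after HDW, with medians of 1.77 unwounded and 2.52 after HDW. Some of the 17 histone genes found lay near 0, such as H1-5 and H4C3, with at most 3 and 5 raw counts per library. The selection of RNA for the libraries is not given in the sources used here, so these counts need not stand for all histone mRNA. H2AC8 and H3C10, with 4 to 17 and 2 to 11 raw counts per WT unwounded library, did not pass the filter within WT cells. Between the genotypes they passed through the GCN2KO libraries, where they are high, and so had to differ.

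**Figure D4:**
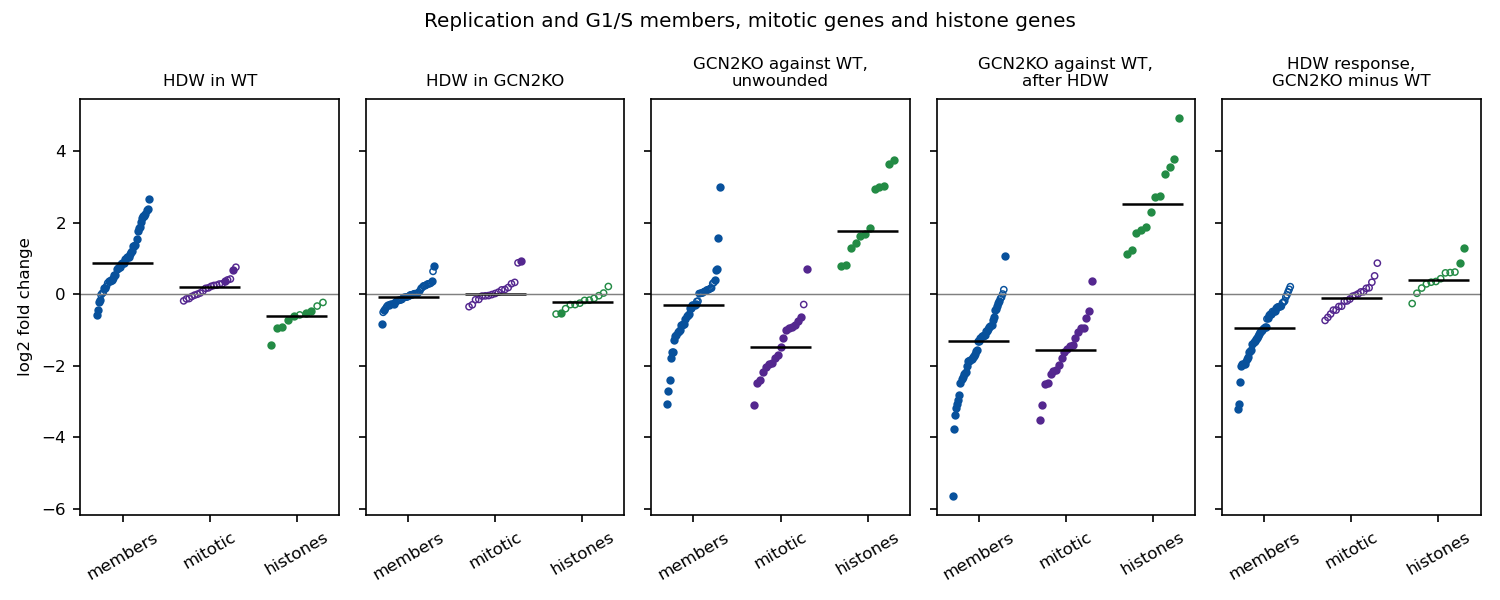
Log2 fold changes of the 48 replication and G1/S genes, 20 mitotic genes and the tested replication-dependent histone genes in each comparison, with filled points where the edgeR adjusted p is at most 0.05 and a bar at each median. In WT cells after HDW the members have a median of 0.88 and the mitotic genes 0.20, and after HDW both lists are lower in GCN2KO cells, with medians of -1.32 and -1.57.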

How the data were processed

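RNA-seq of 20 cultures in 4 groups of 5 was analysed. The authors used Trimmomatic, STAR (GRCh38) and featureCounts, and deposited raw exon counts of uniquely mapped reads for each gene, not normalized. Strand use and the annotation release are not given in the sources used here, so members with overlapping exons are uncertain to that extent. Symbols, positions and exon lengths are from GENCODE, and promoters from RefSeq.

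Counts were tested with edgeR 4.0.16 in R 4.3.3 (glmQLFit, glmQLFTest, TMM, filterByExpr with a minimum count of 10 and minimum total of 15), on the 10 libraries of each comparison or all 20 for the interaction. Adjusted p-values are Benjamini-Hochberg over all genes tested. The study's fold rule was kept as a separate threshold. Normalized read counts were scaled to the mean TMM effective library size over 20 libraries. The biological coefficient of variation was 0.0587 and 0.108 for HDW in WT and GCN2KO cells. The steps were tested on simulated data.

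The members, gene lists and alternatives were chosen with earlier results of these data known. Named for WT HDW are the 2 members of each role with the largest change and the 1 with the largest interaction, and between genotypes the 5 with the smallest adjusted p and those past the fold threshold. Others, as subunits or partners, were named with their values in view. Alternatives were DESeq2 1.42.0, its size factors, library size alone, other filters, thinning, 1 fit of all libraries, the replicate block and each library left out. Omitting WT HDW replicates 2 and 3 was added after seeing the data.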

Additional observations from a re-analysis of the deposited data

Results flagged for a closer look

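Single samples far from the other 4 of their group were looked for in 192 groups of 5 (48 genes in 4 groups), where chance alone marks about 1 in 20, and 5 were found. ORC6 had 25.0 normalized read counts in WT unwounded replicate 2, below 41.7 to 45.9 in the other 4, and GINS4 had 39.3 in the same library, above 19.9 to 25.4. TK1 had 114 in GCN2KO HDW replicate 5, below 241 to 263. E2F2 had 1.67 in GCN2KO HDW replicate 4, below 5.86 to 7.51, and E2F8 had 5.07 in GCN2KO unwounded replicate 5, below 10.7 to 12.5.

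By the interaction test, 33 genes responded to HDW differently in the genotypes, each with a lower log2 value in GCN2KO than in WT cells. For licensing genes the differences were -3.08 for CDC6, -1.61 for ORC1, -1.23 for ORC6, -1.55 for MCM2, -1.16 for MCM3, -1.31 for MCM4, -2.02 for MCM5, -1.94 for MCM6 and -0.57 for MCM7. For helicase activation they were -1.82 for CDC45, -1.34 for GINS1, -3.21 for GINS2, -0.48 for GINS3, -1.05 for GINS4 and -1.96 for CLSPN. For the clamp and its loaders they were -0.46 for PCNA, -0.99 for RFC2, -1.04 for RFC3, -0.66 for RFC4 and -1.39 for DSCC1, and for polymerases and primase -1.13 for POLA2, -0.92 for PRIM1, -0.34 for PRIM2, -2.46 for POLE2 and -0.37 for POLD1. Strand processing genes had -0.56 for FEN1, -1.24 for EXO1 and -1.95 for BRCA1, chromatin genes -0.92 for CHAF1A, -1.60 for CHAF1B, -0.58 for UHRF1 and -0.37 for SLBP, and E2F1 -1.76. The edgeR adjusted p ran from 2.32e-10 for CDC6 to 0.0419 for UHRF1.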

How the results depend on the processing

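No result changed direction under any alternative. With the fold threshold added to the adjusted p, 21 members were higher and 0 lower for HDW in WT cells, 0 and 0 in GCN2KO cells, 2 and 11 for GCN2KO against WT unwounded, and 21 were lower in the interaction. A single fit of all 20 libraries called 2 members lower in WT cells after HDW, and thinning to the smallest library left 2 lower in GCN2KO cells. Genes with a mean of at least 50 counts gave an interaction median of -0.67, over fewer genes. Without WT HDW replicates 2 and 3, 1 member was lower in WT cells after HDW, and the interaction median was -1.13. DESeq2 and the other scalings kept the counts within 1.5 times.

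Samples with the same replicate number did not deviate together (mean correlation -0.109 to 0.0332 per comparison, and in WT 3 of 5 numbers matched best with their own), so no pairing is assumed. With the replicate block, 1 member was higher and 1 lower for HDW in GCN2KO cells, against 2 and 4 without it. Over all 15791 genes tested, 1239 were higher and 882 lower with the block, against 1880 and 1706 without it.

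Leaving out each library in turn gave 36 to 40 members higher and 2 to 4 lower for HDW in WT cells, the 2 without WT HDW replicate 2. For HDW in GCN2KO cells it gave 1 to 4 higher and 1 to 7 lower. The 4 were found without GCN2KO unwounded replicate 4, the 7 without GCN2KO unwounded replicate 2 and the lower 1 without GCN2KO HDW replicate 3. Over all genes tested, 2137 of 15965 were higher in the first of these fits. Lower were 2185 of 15975 genes in the second and 887 of 15955 in the third. Member counts also moved by over 1.5 times without GCN2KO unwounded replicate 1 (1 higher), 3 or 5 (1 higher and 2 lower each), and without GCN2KO HDW replicate 2 (2 lower) or 4 (1 higher and 2 lower). Between genotypes, 4 to 6 were higher and 23 to 27 lower unwounded, and 1 to 2 higher and 42 to 43 lower after HDW, the 2 without GCN2KO HDW replicate 5. The interaction was lower for 26 to 36 and higher for 0. DSCC1 lost its interaction call without WT unwounded replicate 2 or 4, WT HDW replicate 1 or 5, GCN2KO unwounded replicate 1 or 5, or GCN2KO HDW replicate 2, 3 or 4. CDC6, with an edgeR adjusted p of 0.0544 for HDW in GCN2KO cells, was called lower there under 7 alternatives, with adjusted p from 0.0111 to 0.0494. The cause of these moves was not tested. Low counts in GCN2KO cells limit MCM10, DSCC1, E2F2 and E2F8, and other members such as E2F1, EXO1, CDC45 and ORC1. In the GCN2KO HDW libraries E2F1, EXO1, CDC45 and ORC1 had 7 to 20, 3 to 14, 5 to 19 and 8 to 20 raw counts.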

Other observations

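CDC6, TK1 and FEN1 were higher in unwounded GCN2KO than in WT cells. Each had its lowest GCN2KO HDW value in replicate 5, with 229.8, 114 and 322 normalized read counts. RFC4 and BRCA1, the other members called higher in unwounded GCN2KO cells, had theirs in replicates 2 and 3, with 292 and 87.2. UHRF1 in replicate 5, at 226, lay within the 216 to 246 of the other 4. By length, PCNA led the members in each group, from 62.7 reads per kb of exon per 1e6 library reads in GCN2KO HDW to 84.7 in WT HDW cells, and SLBP was next in each group, at 17.2 to 19.7. In WT HDW cells the SLBP level, 19.7 ± 1.23 (SD, n = 5), and the MCM3 level, 19.5 ± 3.99 (SD, n = 5), lay within each other's spread.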
